A study of Saccharomyces cerevisiae with 24 samples.

Results

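The genes of ergosterol synthesis and sterol handling in *Saccharomyces cerevisiae* were followed across strains whose RNA polymerase II carries a shortened C-terminal domain (CTD). The set held 32 genes, chosen by gene symbol from the array annotation, and each of the 32 matched exactly 1 of the 6388 gene probes, of which 5326 have a gene name. It was made of 9 genes from acetoacetyl-CoA thiolase to farnesyl pyrophosphate synthase (the mevalonate branch), 3 genes from squalene synthase to lanosterol synthase, 11 genes from lanosterol to ergosterol, 2 electron donors, 2 regulators, 3 sterol acyl- or acetyltransferase genes and 2 oxysterol-binding protein genes. Transcript levels were measured on 24 arrays with 2 colours, each holding RNA of 1 culture sample and RNA of a common wild type reference. The CTD is a tail of repeated heptapeptides on the largest subunit, encoded by *RPB1* (*RPO21* in the array annotation), and Cdk8 is a kinase of the Mediator complex that phosphorylates it.

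*CDK8* (*SSN3*) was deleted in the double mutant *rpb1-CTD11 cdk8Δ*, with 11 CTD repeats, and in its counterpart with 12 repeats, *rpb1-CTD12 cdk8Δ*. The other groups were the single truncations *rpb1-CTD11* with 11 repeats, *rpb1-CTD12* with 12, *rpb1-CTD13* with 13 and *rpb1-CTD20* with 20, the marked strain *RPB1-CTDWT* with the full tail of 26 repeats, a wild type labelled 330 rpm and a wild type with no such label. Wild type had 8 arrays and each other group had 2, with the dyes exchanged between arrays a and b. The truncations were made at the chromosomal *RPB1* locus with a stop codon and a nourseothricin marker, which *RPB1-CTDWT* also carries behind its own stop codon. All strains were grown to midlog phase in synthetic complete medium with glucose at 30°C, and shaking is given as 230 rpm in the protocol of all samples, also of the wild type labelled 330 rpm. No group held a *CDK8* deletion with a full-length CTD, so loss of *CDK8* was measured here in the 2 shortest CTD strains. The labels do not say whether arrays of one group came from separate cultures, so the p-values measure the spread between these arrays.

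Ergosterol is the main sterol of yeast membranes and is built in the endoplasmic reticulum from acetyl-CoA. The mevalonate branch makes farnesyl pyrophosphate, which also feeds dolichol, ubiquinone and protein prenylation. Squalene is then made, oxidised and closed into lanosterol, and the later enzymes remove methyl groups, add 1 methyl group to the side chain and rearrange double bonds, several of them using oxygen and haem or iron. Upc2 senses sterol and activates many *ERG* genes when sterol is low, surplus sterol is stored as esters or leaves the cell as acetates, and oxysterol-binding proteins move lipids between membranes.

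All levels below are log2 ratios of a sample to the common reference with the dye effect taken off, and all differences are log2 fold changes from limma fitted to the 24 arrays. "Passed" means a Benjamini-Hochberg adjusted p under 0.01 over all 6388 gene probes, and "called" means that the fold change also exceeded 1.7. Both cut-offs are those of the study, applied here to adjusted p-values. The median signal of an array lay between 314.1 and 1184 units, and between 86.1% and 98.6% of gene probes were above the empty spots on an array. Of the 32 genes, 30 were above the empty spots on all 24 arrays, and *ARE2* and *HES1*, among the dimmest, on 23. The alpha-factor gene *MF(ALPHA)1* gave a signal of at least 8083 on every array, whereas the a-factor genes *MFA1* and *MFA2* stayed at 222 or less. *SSN3* was not above the empty spots on any of the 4 double mutant arrays and was above them on the other 20. The strains also differed in *LYS2* and *MET17*, genes of lysine and methionine synthesis that serve as strain markers, whose part in the results was not tested. *LYS2* lay between 2.36 and 3.48 on the arrays of all truncated strains and between -0.10 and 0.14 on all others, and *MET17* lay at -4.42 or lower in *rpb1-CTD12*, *rpb1-CTD13* and *rpb1-CTD20* alone. Transcripts of the mitochondrial genome were lower in *rpb1-CTD11* and *rpb1-CTD12*, where 6 of 8 passed against wild type. Of all gene probes, 24.9% and 17.4% passed as lower in these strains. Scaling to the spiked-in control probes in place of the bulk of transcripts moved the median of all gene probes by as much as -0.59, a value found for 13 repeats against wild type, so every difference here is relative to the other transcripts of the same array.

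The sterol genes changed in the strains with 11 and 12 repeats and in both double mutants, and no sterol gene passed in either of the milder truncations. Against wild type, 6 of the 32 genes rose and 13 fell in *rpb1-CTD11*, where 24.3% of all gene probes rose and 24.9% fell. In *rpb1-CTD12*, 5 rose and 13 fell, against 18.6% and 17.4% of all gene probes. No sterol gene passed in *rpb1-CTD13*, *rpb1-CTD20* or *RPB1-CTDWT*, where all gene probes passed at 1.52% higher and 4.34% lower, 0.172% higher and 0.204% lower, and 0.0157% higher and 0.125% lower, in that order. At an unadjusted p under 0.05 the sterol genes numbered 8, 4 and 1 of 32 in these 3 strains. Of all 6388 gene probes, 1642, 855 and 575 met this cut-off, so the sterol share was not above the share of all gene probes. Under the spiked-in scaling 30 of the 32 passed as lower with 13 repeats, together with that shift of all gene probes. Of all gene probes that passed there, 0.0169% were higher. The median log2 ratio of the spiked-in probes was 0.587 on array a of *rpb1-CTD13* and 1.23 on array b. Of 14 spiked-in probes, 6 were above background on every array. The paper reports that its spiked-in controls detected no global change in mRNA levels. The median change over the 32 genes was -0.10 in *rpb1-CTD11* and -0.10 in *rpb1-CTD12*, beside 0.00 over all gene probes in both.

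The deposited strain list pairs the double mutants with wild type 330 rpm, which differs from them in labelled shaking as well as in genotype. Genotype and labelled shaking cannot be told apart in that comparison. Against wild type 330 rpm, 1 sterol gene rose and 13 fell in *rpb1-CTD11 cdk8Δ*, where 15.2% of all gene probes rose and 13.2% fell. In *rpb1-CTD12 cdk8Δ*, 1 rose and 11 fell, against 15.6% and 11.2% of all gene probes. The double mutant was also set against the single mutant with the same CTD, a comparison called loss of *CDK8* below. The strains of each pair also differed in the level of *MET17*, by -1.16 with 11 repeats and 4.39 with 12. The signal of *MET17* was 1521.7 or more in both strains with 11 repeats and 173.7 or less in *rpb1-CTD12*. In the mitochondrial transcript *OLI1* the pairs differed by 5.62 and 5.07. These differences cannot be told apart from the deletion on these arrays. In this comparison 3 sterol genes rose and 14 fell with 11 repeats, where 19.7% of all gene probes rose and 18.9% fell, and 2 rose and 10 fell with 12 repeats, where 17.5% rose and 14.9% fell. The share of sterol genes that fell was thus above the background share in all 6 of these comparisons, and the share that rose was below it in all 6, as a description of the chosen genes. Each group stands in 2 of these 6 comparisons, so they are not independent of each other.

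**Figure D1:**
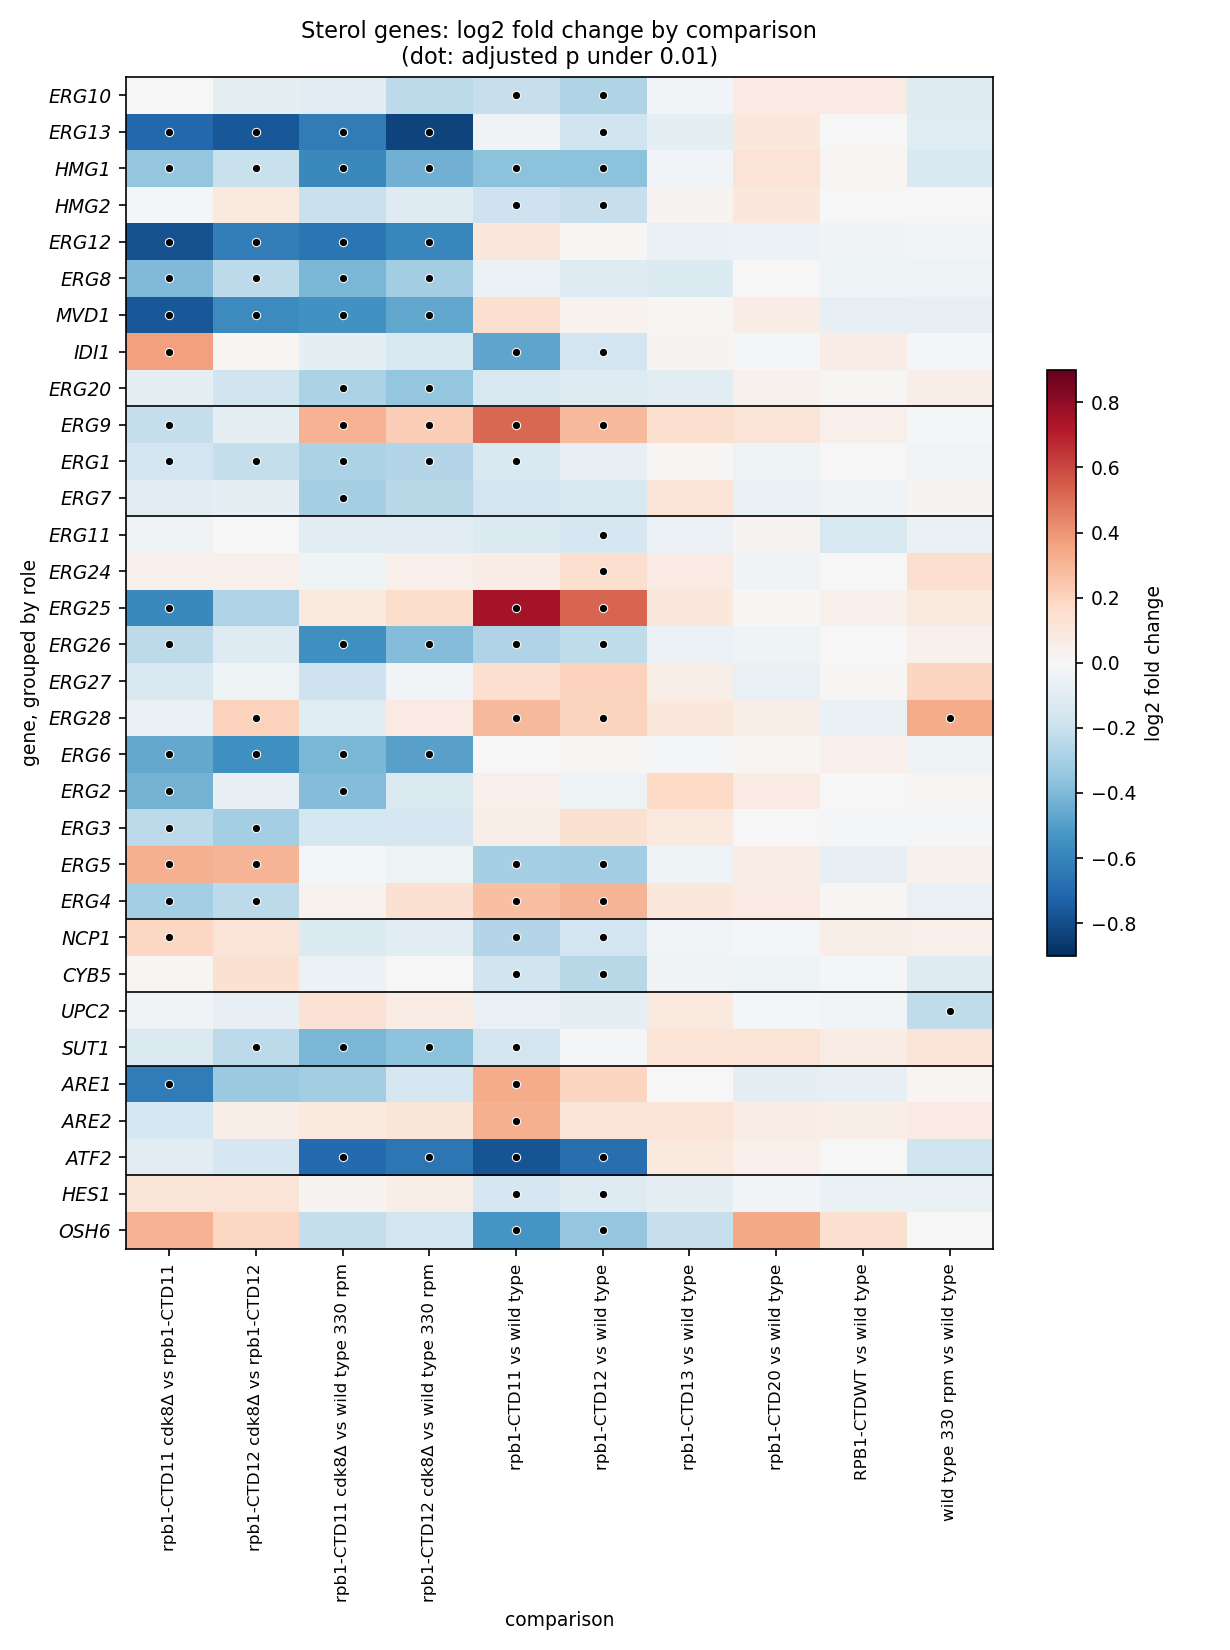
Log2 fold change of the 32 sterol genes (rows, grouped by role) in 10 comparisons (columns), with red for higher and blue for lower in the first-named group and a dot where the adjusted p was under 0.01. The 4 columns of the double mutants and the 2 of the strains with 11 and 12 repeats hold between 12 and 19 dots each, the columns of 13 and 20 repeats and of *RPB1-CTDWT* have none, and wild type 330 rpm has 2.

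These counts depended on the scaling, the dye term and the arrays fitted. The shares of all gene probes in these alternative fits were not taken. Scaled to the spiked-in controls, 2 and 1 genes passed with 11 and 12 repeats against wild type, 1 in each double mutant against wild type 330 rpm and 0 for loss of *CDK8* with either length. Fitting only the arrays compared gave 5 and 5 for loss of *CDK8*. Without the dye term, 9 genes passed in *rpb1-CTD11* (4 higher, 5 lower) and 7 in *rpb1-CTD12* (2 higher, 5 lower) against wild type, and 6 and 5 passed, all lower, in the double mutants with 11 and 12 repeats against wild type 330 rpm. For loss of *CDK8*, 9 and 5 passed with 11 and 12 repeats. Leaving out either array of *rpb1-CTD12* lowered its count of 18 to 9 (without a) or 8 (without b), and leaving out array b lowered the count for loss of *CDK8* with 12 repeats to 6.

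In the truncations, the mevalonate genes that passed fell by 0.47 or less and none rose. Of the 9 genes of the branch, 4 fell and none rose in *rpb1-CTD11* (median -0.15), where 24.9% of all gene probes fell and 24.3% rose. In *rpb1-CTD12*, 5 fell and none rose (median -0.17), where 17.4% of all gene probes fell and 18.6% rose. No mevalonate gene that passed changed sign under the spiked-in scaling. *HMG1*, one of a pair of genes for HMG-CoA reductase, the main control point of the branch, lay at -0.31 and -0.28 in *rpb1-CTD11* and at -0.33 and -0.26 in *rpb1-CTD12*, against -0.03 to 0.15 in wild type (median 0.08). The groups did not overlap, and *HMG1* fell by 0.37 in both (SE 0.05, adjusted p = 1.78e-06 and 4.28e-06). *HMG2*, the other reductase gene, fell by 0.19 and 0.21 (adjusted p = 0.00415 and 0.00265), and *ERG10*, acetoacetyl-CoA thiolase, fell by 0.21 and 0.27 (adjusted p = 0.00366 and 0.000657). Each of these 4 smaller decreases missed the threshold without at least 1 of the arrays of its strain, with *HMG2* at -0.13 (adjusted p = 0.137) without array a of *rpb1-CTD12* and *ERG10* at -0.14 (adjusted p = 0.129) without array a of *rpb1-CTD11*.

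*IDI1* encodes the isomerase that turns isopentenyl diphosphate into its reactive isomer, and it differed between *rpb1-CTD11* and *rpb1-CTD12*, strains that also differed in *MET17* by 5.76. Its arrays read -0.45 and -0.47 in *rpb1-CTD11* and -0.08 and -0.24 in *rpb1-CTD12*, against -0.05 to 0.13 in wild type (median -0.01). *IDI1* fell by 0.47 in *rpb1-CTD11* (SE 0.05, adjusted p = 7.58e-08) and by 0.17 in *rpb1-CTD12* (SE 0.05, adjusted p = 0.00472). It was the only sterol gene that passed between the 2 strains, 0.30 lower in *rpb1-CTD11* than in *rpb1-CTD12* (SE 0.06, adjusted p = 0.00161), where 4.2% of all gene probes were higher and 3.57% lower. Without array a of *rpb1-CTD12* this difference was -0.22 with an adjusted p of 0.0637, and without array b of *rpb1-CTD11* it was -0.29 with an adjusted p of 0.011. Without array b of *rpb1-CTD12*, its change there against wild type was -0.09 with an adjusted p of 0.261.

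The set of mevalonate genes that was low in the double mutants differed in part from that in the single mutants, with *HMG1* low in both. *ERG13* (HMG-CoA synthase), *ERG12* (mevalonate kinase), *ERG8* (phosphomevalonate kinase) and *MVD1* (mevalonate pyrophosphate decarboxylase) fell in both double mutants against wild type 330 rpm and against the single mutant, and of these 4 only *ERG13* in *rpb1-CTD12* had passed in a single mutant against wild type. *ERG12* read -0.75 and -0.66 in *rpb1-CTD11 cdk8Δ* and -0.65 and -0.63 in *rpb1-CTD12 cdk8Δ*, against 0.07 and 0.08 in *rpb1-CTD11*, -0.02 and -0.01 in *rpb1-CTD12*, -0.03 and -0.08 in wild type 330 rpm and -0.09 to 0.01 in wild type (median -0.01). All 4 double mutant arrays lay below every other array of the series. *ERG12* fell by 0.79 after loss of *CDK8* with 11 repeats (SE 0.04, adjusted p = 5.14e-11), the only sterol gene called there, where 2.29% of all gene probes were called lower. With 12 repeats it fell by 0.62 (SE 0.04, adjusted p = 2.64e-09), and against wild type 330 rpm it fell by 0.66 with 11 and 0.58 with 12 repeats (adjusted p = 1.34e-09 and 7.68e-09).

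Of the 32 sterol genes, *ERG13* had the largest decrease in *rpb1-CTD12 cdk8Δ* against wild type 330 rpm. It read -0.69 and -0.71 in *rpb1-CTD11 cdk8Δ* and -0.96 and -0.84 in *rpb1-CTD12 cdk8Δ*, against -0.03 and 0.04 in *rpb1-CTD11*, -0.16 and -0.12 in *rpb1-CTD12*, -0.03 and -0.11 in wild type 330 rpm and -0.07 to 0.11 in wild type (median 0.05). The double mutant arrays again lay below all others. *ERG13* fell by 0.84 in *rpb1-CTD12 cdk8Δ* against wild type 330 rpm (SE 0.06, adjusted p = 1.48e-08), which was a call where 0.861% of all gene probes were called lower, and by 0.63 in *rpb1-CTD11 cdk8Δ* (SE 0.06, adjusted p = 3.19e-07). Against the single mutants it fell by 0.70 and 0.76 with 11 and 12 repeats (SE 0.06, adjusted p = 4.92e-08 and 3.95e-08). The small decrease of 0.18 in *rpb1-CTD12* alone (adjusted p = 0.00674) did not pass without either array of that strain (adjusted p = 0.0929 without a and 0.0372 without b).

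*MVD1* read -0.58 and -0.51 in *rpb1-CTD11 cdk8Δ* and -0.41 and -0.53 in *rpb1-CTD12 cdk8Δ*, against 0.18 and 0.26 in *rpb1-CTD11*, 0.11 on both arrays of *rpb1-CTD12*, -0.09 and 0.09 in wild type 330 rpm and -0.11 to 0.20 in wild type (median 0.08). It fell by 0.76 and 0.58 after loss of *CDK8* with 11 and 12 repeats (SE 0.09, adjusted p = 1.54e-06 and 6.16e-05), and by 0.54 and 0.47 against wild type 330 rpm (adjusted p = 0.000116 and 0.000538). The last of these did not pass without array b of *rpb1-CTD12 cdk8Δ* (-0.40, adjusted p = 0.0136) or without array b of wild type 330 rpm (-0.37, adjusted p = 0.0191). *ERG8* fell by 0.40 and 0.24 against the single mutants (adjusted p = 2.02e-05 and 0.00325; 0.0595 with 12 repeats without array b of either strain) and by 0.41 and 0.31 against wild type 330 rpm (adjusted p = 2.36e-05 and 0.000418).

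*HMG1*, already low in the single mutants, was lower again in the double mutants. It read -0.61 and -0.68 in *rpb1-CTD11 cdk8Δ* and -0.57 and -0.43 in *rpb1-CTD12 cdk8Δ*, against -0.05 and -0.08 in wild type 330 rpm, a decrease of 0.58 and 0.43 (SE 0.06, adjusted p = 2.47e-07 and 1.12e-05). Against the single mutants it fell by 0.35 with 11 repeats (SE 0.06, adjusted p = 6.74e-05) and by 0.20 with 12 (SE 0.06, adjusted p = 0.00906). The decrease with 12 repeats was -0.12 without array a of *rpb1-CTD12 cdk8Δ* (adjusted p = 0.163), -0.23 without array a of *rpb1-CTD12* (adjusted p = 0.0191) and -0.17 without array b of *rpb1-CTD12* (adjusted p = 0.0905).

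The remaining mevalonate genes differed. *ERG20*, farnesyl pyrophosphate synthase, fell by 0.28 and 0.35 in the double mutants with 11 and 12 repeats against wild type 330 rpm (adjusted p = 0.0018 and 0.000322) and had -0.08 and -0.18 against the single mutants (adjusted p = 0.315 and 0.0334). Without array a of *rpb1-CTD11 cdk8Δ* its decrease there was -0.23 (adjusted p = 0.0375). *IDI1* moved the other way: it read -0.12 and -0.07 in *rpb1-CTD11 cdk8Δ*, against -0.45 and -0.47 in *rpb1-CTD11*, and rose by 0.37 (SE 0.06, adjusted p = 3.81e-05), whereas with 12 repeats its difference was 0.02 (adjusted p = 0.828). *HMG2* and *ERG10* did not pass after loss of *CDK8* (differences from -0.08 to 0.09). Over the 9 genes the median level was -0.47 and -0.44 on the arrays of *rpb1-CTD11 cdk8Δ* and -0.41 on both arrays of *rpb1-CTD12 cdk8Δ*, against -0.03 on both of wild type 330 rpm and -0.04 to 0.11 in wild type.

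In counts, 6 of the 9 mevalonate genes fell and none rose in each double mutant against wild type 330 rpm (medians -0.41 and -0.35, beside 0.01 over all gene probes in both). Of all gene probes, 13.2% fell and 15.2% rose there with 11 repeats, and 11.2% fell and 15.6% rose with 12. After loss of *CDK8*, 5 fell and 1 rose with 11 repeats (median -0.35), where 18.9% of all gene probes fell and 19.7% rose. With 12 repeats, 5 fell and none rose (median -0.20), where 14.9% of all gene probes fell and 17.5% rose. Under the spiked-in scaling *HMG1* and *ERG8* with 12 repeats changed sign, to 0.11 and 0.07.

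**Figure D2:**
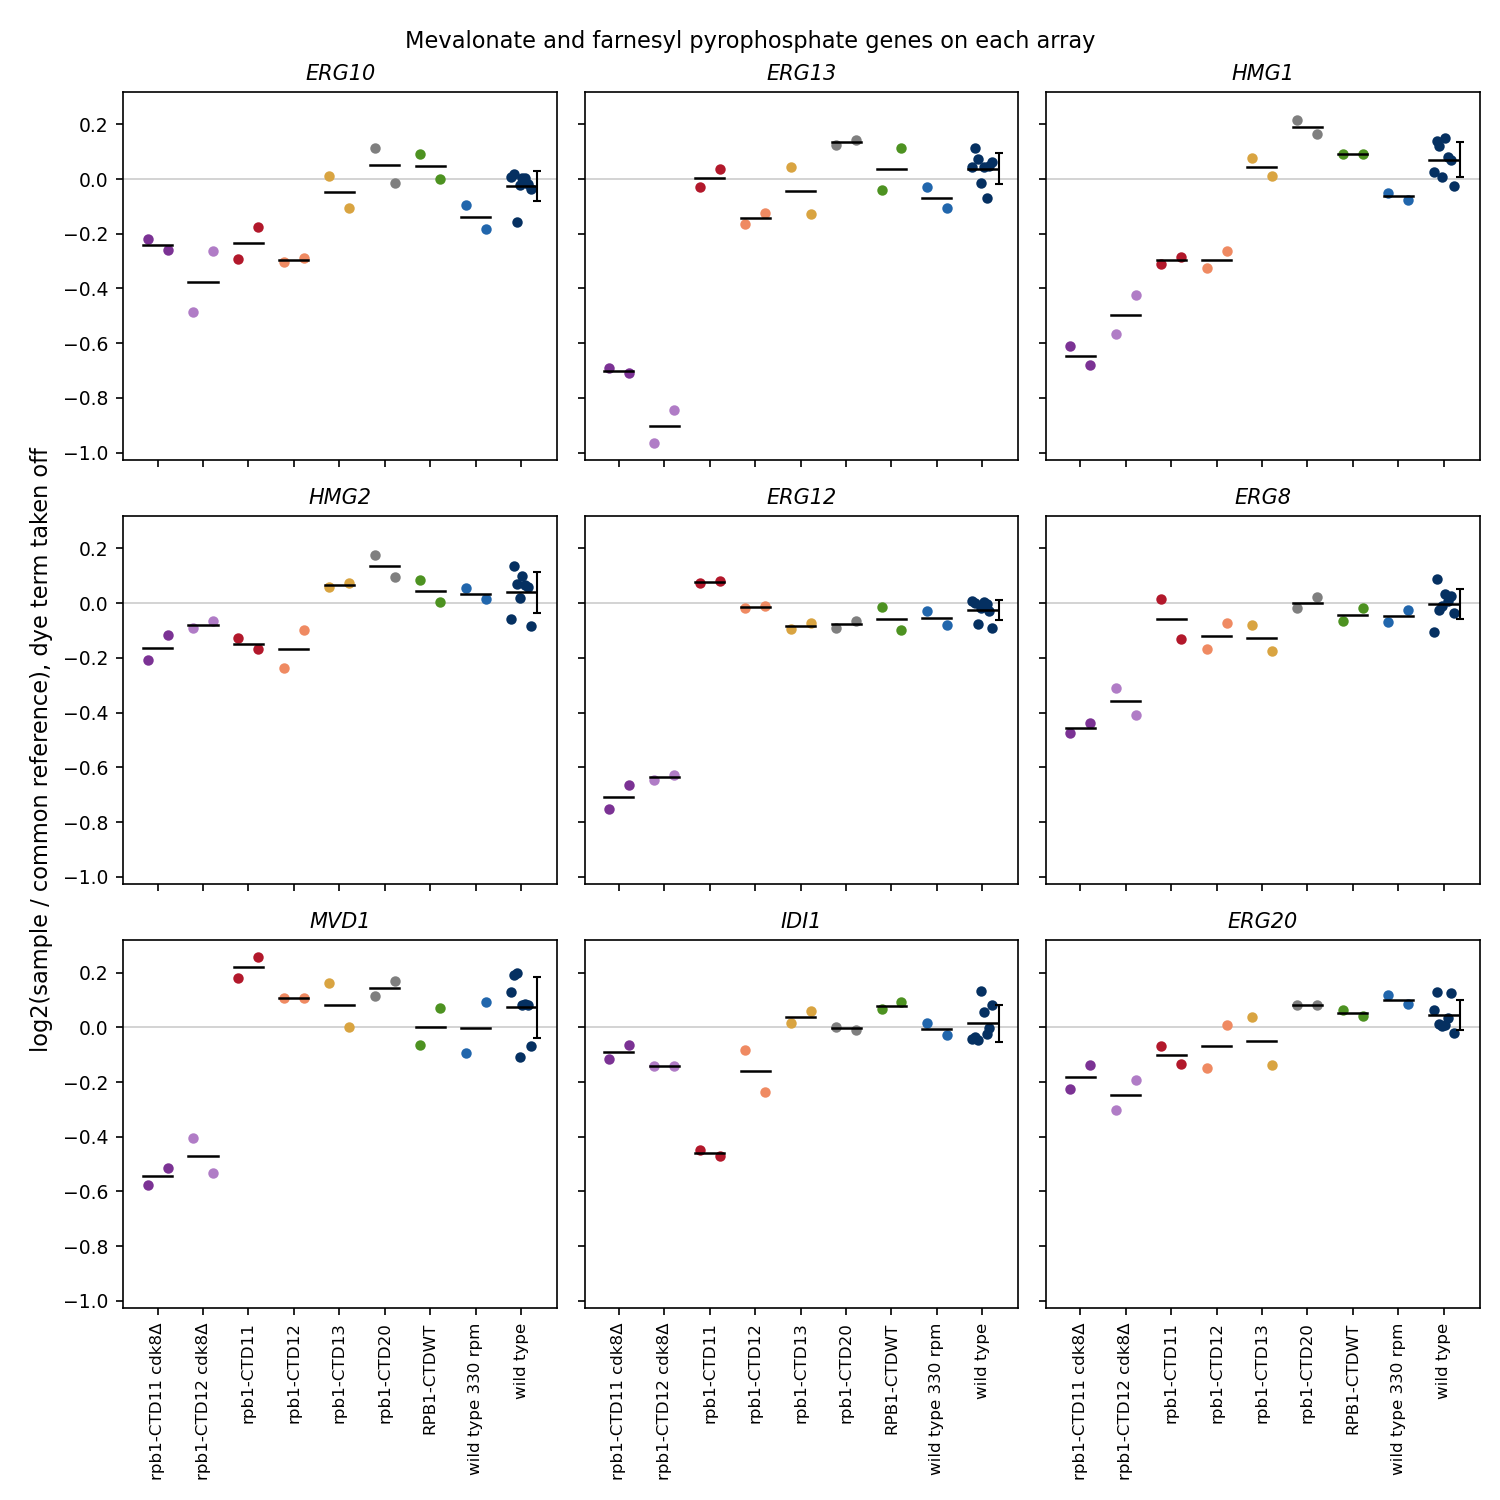
Log2 ratio to the common reference (y axis, dye term taken off) of the 9 mevalonate branch genes on each array (points), by group (x axis). Short lines are group means and the bar at wild type is the SD of its 8 arrays. The 4 double mutant arrays lie below the rest for *ERG13*, *HMG1*, *ERG12*, *ERG8* and *MVD1*, and *IDI1* is lowest in *rpb1-CTD11*.

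The 3 genes from farnesyl pyrophosphate to lanosterol did not move together. *ERG9*, squalene synthase, the first enzyme committed to sterols, read 0.57 and 0.41 in *rpb1-CTD11* and 0.24 and 0.30 in *rpb1-CTD12*, against -0.08 to 0.07 in wild type (median -0.05). It rose by 0.52 in *rpb1-CTD11* (SE 0.05, adjusted p = 2.08e-08), the lowest adjusted p of the sterol genes in that comparison, and by 0.29 in *rpb1-CTD12* (SE 0.05, adjusted p = 4.4e-05). The difference between these strains was 0.22 (SE 0.06, adjusted p = 0.0131), short of the threshold.

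*ERG9* was also the only sterol gene that rose in a double mutant against wild type 330 rpm. It read 0.26 and 0.30 in *rpb1-CTD11 cdk8Δ* and 0.14 and 0.23 in *rpb1-CTD12 cdk8Δ*, against -0.08 and 0.01 in wild type 330 rpm, an increase of 0.32 and 0.22 (SE 0.06, adjusted p = 0.000249 and 0.00487). The increase with 12 repeats was 0.18 with an adjusted p of 0.0788 without array a of wild type 330 rpm and 0.17 with an adjusted p of 0.074 without array b of the double mutant. Against *rpb1-CTD11* it fell by 0.21 (SE 0.06, adjusted p = 0.00488), and this difference missed the threshold without array a of *rpb1-CTD11 cdk8Δ* (-0.20, adjusted p = 0.0441), without array b of it (-0.23, adjusted p = 0.0189) and without array a of *rpb1-CTD11* (-0.13, adjusted p = 0.117).

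*ERG1*, squalene epoxidase, an oxygen-dependent step, fell in both double mutants by 0.28 and 0.26 against wild type 330 rpm (adjusted p = 6.06e-05 and 0.000147) and by 0.17 and 0.21 against the single mutants (adjusted p = 0.00363 and 0.000827), though under the spiked-in scaling it had 0.04 and 0.10 against the single mutants. It fell by 0.14 in *rpb1-CTD11* (adjusted p = 0.00273), which was -0.08 (adjusted p = 0.149) without array a of that strain, and had -0.08 in *rpb1-CTD12* (adjusted p = 0.0844). *ERG7*, lanosterol synthase, fell by 0.30 in *rpb1-CTD11 cdk8Δ* against wild type 330 rpm (adjusted p = 0.00716) and did not pass in the other comparisons, nor there without any 1 of the 4 arrays compared (adjusted p between 0.026 and 0.0626).

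From lanosterol onward, 3 of 11 genes rose and 2 fell in *rpb1-CTD11* (median 0.06), shares near the 24.3% and 24.9% of all gene probes, and 4 rose and 3 fell in *rpb1-CTD12* (median 0.13), where all gene probes had 18.6% and 17.4%. The largest change was in *ERG25*, the methyl sterol oxidase that starts removal of the methyl pair at the ring. Its arrays read 0.82 and 0.98 in *rpb1-CTD11* and 0.57 and 0.79 in *rpb1-CTD12*, against 0.01 to 0.30 in wild type (median 0.13). *ERG25* rose by 0.75 in *rpb1-CTD11* (SE 0.08, adjusted p = 1.53e-07), a 1.68-fold change just short of the 1.7-fold required for a call, and by 0.53 in *rpb1-CTD12* (SE 0.08, adjusted p = 2.41e-05).

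In the double mutants *ERG25* did not pass against wild type 330 rpm. It read 0.29 and 0.36 in *rpb1-CTD11 cdk8Δ* and 0.54 and 0.26 in *rpb1-CTD12 cdk8Δ*, against 0.23 and 0.25 in wild type 330 rpm, differences of 0.09 and 0.16 (SE 0.10, adjusted p = 0.532 and 0.223). Against *rpb1-CTD11* it fell by 0.58 (SE 0.10, adjusted p = 7.76e-05), and against *rpb1-CTD12* the difference was -0.28 (SE 0.10, adjusted p = 0.0274).

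Of the partners of *ERG25* in the same demethylation, *ERG28* also rose with 11 and 12 repeats against wild type, while *ERG26* and *ERG27* did not. *ERG26*, the sterol dehydrogenase, fell by 0.27 and 0.23 in the truncations with 11 and 12 repeats (adjusted p = 9.32e-05 and 0.000681), by 0.55 and 0.39 in the double mutants against wild type 330 rpm (adjusted p = 9.33e-07 and 5.9e-05), and by 0.24 after loss of *CDK8* with 11 repeats (adjusted p = 0.00329, and between 0.0103 and 0.0421 without any 1 of the 4 arrays compared). *ERG27*, the keto reductase, passed in no comparison. *ERG28*, a scaffold that holds these enzymes together, read 0.04 and -0.09 in *rpb1-CTD11* and -0.16 and -0.08 in *rpb1-CTD12*, against -0.38 to -0.25 in wild type (median -0.31), and rose by 0.29 and 0.20 (SE 0.04, adjusted p = 7.39e-06 and 0.000652). In wild type 330 rpm it read -0.01 and 0.04 and was itself 0.33 above wild type, so that set against wild type 330 rpm the difference was -0.04 in *rpb1-CTD11* and -0.14 in *rpb1-CTD12* (adjusted p = 0.527 and 0.0544). Without array b of *rpb1-CTD12* its increase there was 0.15 (adjusted p = 0.0436).

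*ERG28* also rose by 0.21 in *rpb1-CTD12 cdk8Δ* against *rpb1-CTD12* (SE 0.05, adjusted p = 0.00313), with 0.06 and 0.12 on the double mutant arrays, and this did not pass without array b of the double mutant (adjusted p = 0.0473) or array a of the single mutant (adjusted p = 0.0535). *ERG11*, the lanosterol demethylase that azole drugs inhibit, and *ERG24*, the sterol reductase that follows it, passed only in *rpb1-CTD12* against wild type, at -0.15 and 0.15 (adjusted p = 0.00956 and 0.00865). *ERG11* read -0.10 and -0.11 there, against 0.00 to 0.09 in wild type, and *ERG24* read -0.03 and -0.01, against -0.27 to -0.06 in wild type. Neither passed when 1 array of that strain was left out: without array a or b of *rpb1-CTD12* the adjusted p was 0.0627 and 0.0901 for *ERG11* and 0.0529 and 0.0935 for *ERG24*.

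*ERG6* had the pattern of *ERG13* and *ERG12*. *ERG6* encodes the methyltransferase that gives ergosterol the extra side chain carbon that cholesterol lacks, and it read -0.57 and -0.45 in *rpb1-CTD11 cdk8Δ* and -0.55 and -0.63 in *rpb1-CTD12 cdk8Δ*, against -0.04 and -0.06 in *rpb1-CTD11*, -0.12 and 0.03 in *rpb1-CTD12*, -0.12 and -0.09 in wild type 330 rpm and -0.16 to 0.05 in wild type (median -0.05). All 4 double mutant arrays were below every other array. *ERG6* fell by 0.46 and 0.55 after loss of *CDK8* with 11 and 12 repeats (SE 0.06, adjusted p = 4.02e-06 and 8.08e-07) and by 0.41 and 0.49 against wild type 330 rpm (SE 0.06, adjusted p = 2.47e-05 and 3.82e-06), and in the single truncations it had 0.00 and 0.01.

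*ERG2*, the sterol isomerase, was low in the double mutant with 11 repeats. It read -0.43 and -0.34 in *rpb1-CTD11 cdk8Δ*, against 0.03 and 0.06 in *rpb1-CTD11* and -0.05 and 0.07 in wild type 330 rpm, a decrease of 0.43 against the single mutant (SE 0.07, adjusted p = 2.64e-05) and of 0.39 against wild type 330 rpm (SE 0.07, adjusted p = 0.000103). In *rpb1-CTD12 cdk8Δ* it read -0.04 and -0.21, with differences of -0.08 and -0.13 (adjusted p = 0.369 and 0.124). The difference between the responses at 11 and 12 repeats was -0.35 (SE 0.09, adjusted p = 0.0287), short of the threshold. *ERG3*, the desaturase that precedes *ERG5*, fell by 0.23 and 0.30 against the single mutants (adjusted p = 0.00355 and 0.000478), while under the spiked-in scaling its difference with 12 repeats was 0.01, and it had -0.16 and -0.15 against wild type 330 rpm (adjusted p = 0.0447 and 0.0546).

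*ERG5* and *ERG4*, which act on the side chain at the end of the pathway, moved in opposite directions in the truncations, and each moved the other way after loss of *CDK8*. *ERG5*, the side chain desaturase, read -0.23 and -0.22 in *rpb1-CTD11* and -0.29 and -0.19 in *rpb1-CTD12*, against 0.01 to 0.11 in wild type (median 0.09), a decrease of 0.30 and 0.31 (SE 0.04, adjusted p = 3.53e-06 and 5.04e-06). It read 0.14 and 0.06 in *rpb1-CTD11 cdk8Δ* and 0.01 and 0.13 in *rpb1-CTD12 cdk8Δ*, against 0.11 on both arrays of wild type 330 rpm, and it rose by 0.32 and 0.30 against the single mutants (SE 0.05, adjusted p = 3.29e-05 and 8.48e-05). *ERG4*, the last reductase, rose by 0.27 and 0.30 in the truncations (SE 0.05, adjusted p = 5.73e-05 and 3.23e-05) and fell by 0.31 and 0.23 after loss of *CDK8* (adjusted p = 0.000242 and 0.00313), a decrease that under the spiked-in scaling was 0.08 with 12 repeats.

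**Figure D3:**
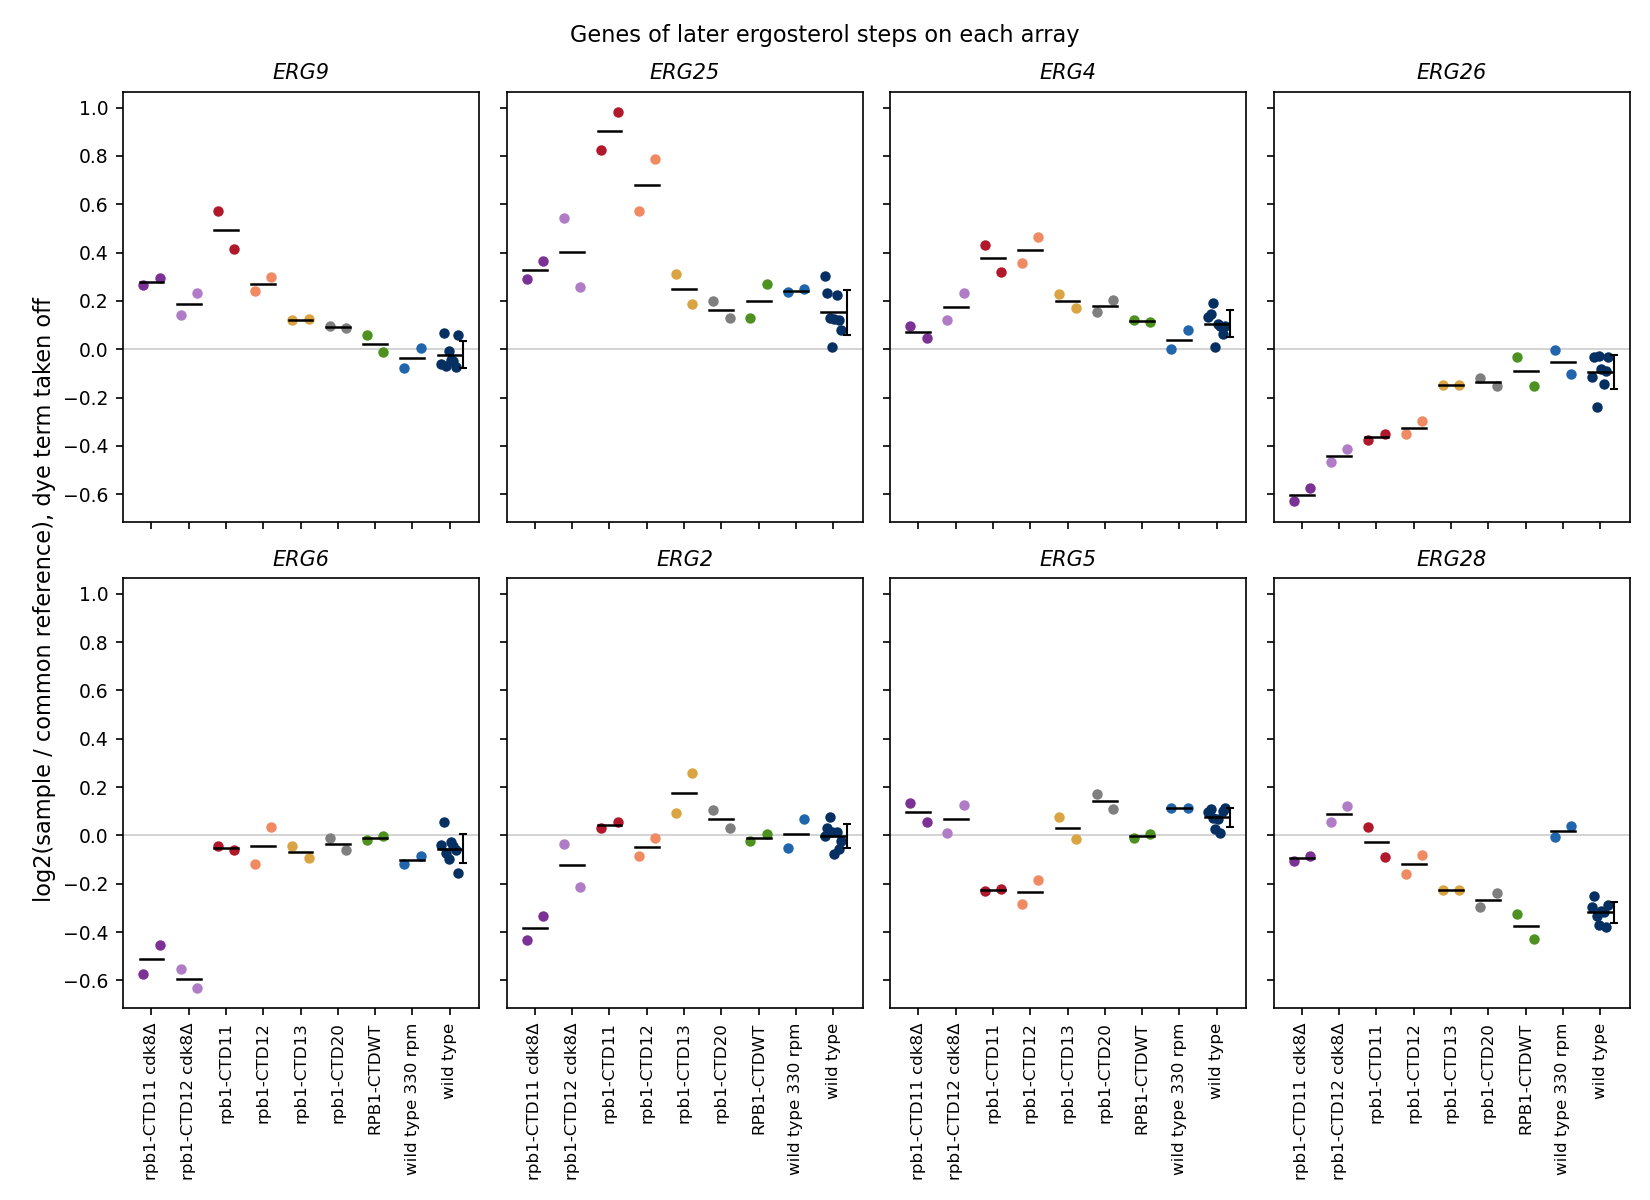
Log2 ratio to the common reference (y axis, dye term taken off) of 8 genes of later steps on each array (points), by group (x axis), with group means as short lines and the SD of the 8 wild type arrays as a bar. *ERG25*, *ERG9* and *ERG4* are highest in *rpb1-CTD11* or *rpb1-CTD12*, *ERG6* and *ERG26* are lowest in the double mutants, *ERG5* is low in *rpb1-CTD11* and *rpb1-CTD12* alone, and *ERG28* is higher in wild type 330 rpm than in wild type.

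Of the 23 genes of the mevalonate, squalene and later steps, the scaffold gene *ERG28* among them, 9 fell for loss of *CDK8* both with 11 and with 12 repeats, *ERG13*, *HMG1*, *ERG12*, *ERG8*, *MVD1*, *ERG1*, *ERG6*, *ERG3* and *ERG4*, and 1 rose in both, *ERG5*. Of all gene probes, 11.1% fell and 12.7% rose in both. Under the spiked-in scaling, where the median of all gene probes moved by 0.22 and 0.32 with 11 and 12 repeats, *HMG1*, *ERG8*, *ERG1*, *ERG3* and *ERG4* had the opposite sign with 12 repeats and *ERG1* also with 11. With 12 repeats, *ERG1*, *ERG3* and *ERG4* missed the threshold without array b of *rpb1-CTD12* (adjusted p = 0.0106, 0.0109 and 0.066), and with 11 repeats *ERG1* and *ERG3* missed it without array b of *rpb1-CTD11* (adjusted p = 0.076 and 0.0538). Of the 14 alternative settings and single-array exclusions with 12 repeats, *HMG1* passed in 2, *ERG4* in 6, *ERG3* in 7, and *ERG8* and *ERG1* in 8. *ERG13*, *ERG12*, *MVD1*, *ERG6* and *ERG5* passed in 13 each. No gene passed in opposite directions with 11 and 12 repeats. The test of the difference between the 2 responses passed for none of the 32 sterol genes, where it passed for 0.642% of all gene probes as higher and 1.64% as lower. The lowest adjusted p values there belonged to *IDI1* (0.35, adjusted p = 0.0156), *ERG2* and *ERG28* (-0.28, adjusted p = 0.0298). Without array b of *rpb1-CTD11*, 2 genes passed.

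**Figure D4:**
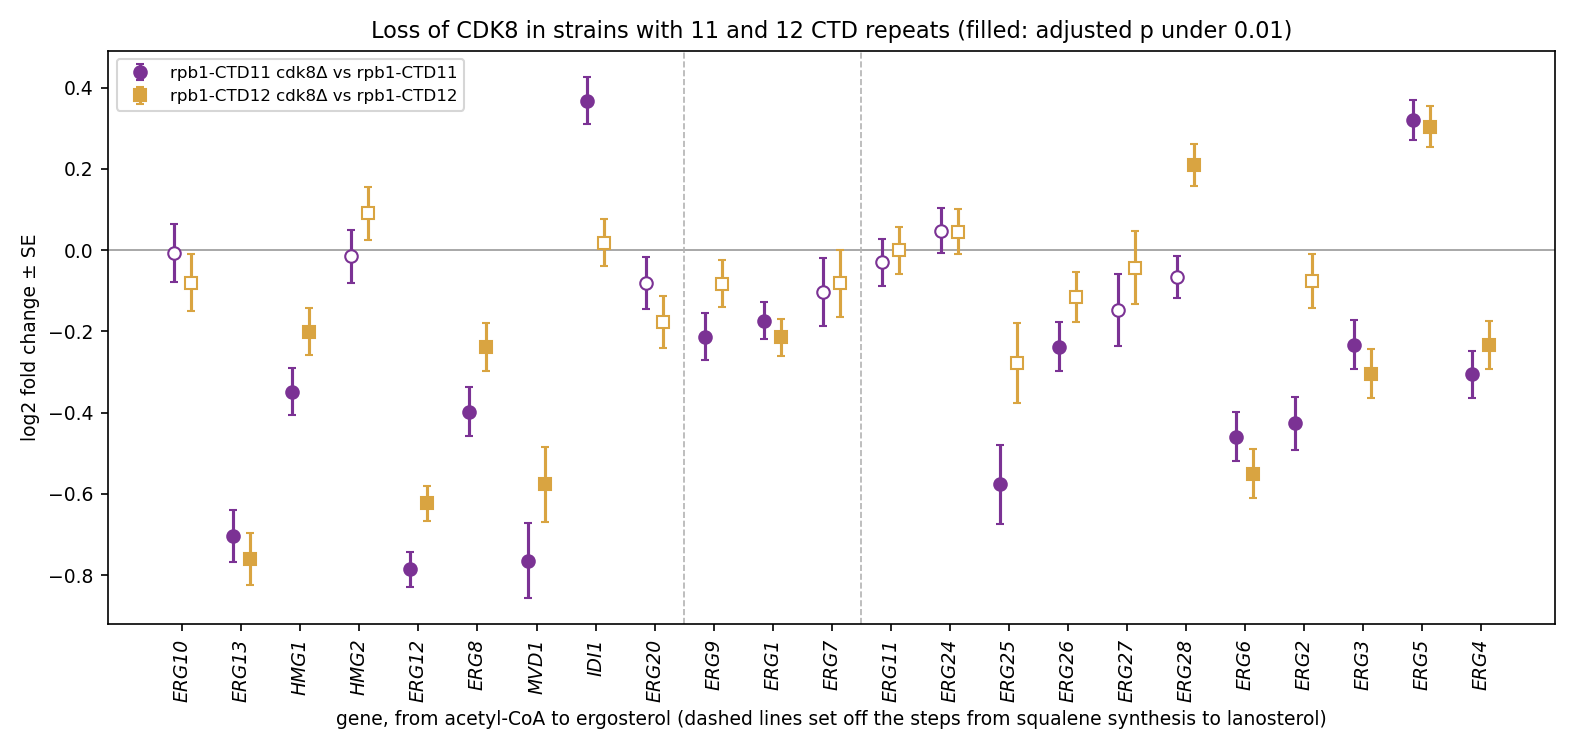
Log2 fold change (y axis, bars are SE) of the double mutant over its single mutant for the 23 genes of the mevalonate, squalene and later steps in pathway order (x axis), with 11 repeats as circles and 12 repeats as squares, filled where the adjusted p was under 0.01. *ERG13*, *ERG12* and *MVD1* lie between -0.79 and -0.58 in both, and *IDI1* and *ERG5* stand at 0.37 and 0.32 with 11 repeats.

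Both electron donors fell in the truncations. *NCP1*, the reductase that feeds electrons to the lanosterol demethylase, fell by 0.26 and 0.17 in *rpb1-CTD11* and *rpb1-CTD12* (adjusted p = 1.77e-05 and 0.00155), and *CYB5*, an electron carrier of the endoplasmic reticulum, fell by 0.18 and 0.25 (adjusted p = 0.00724 and 0.000894). Without array a of *rpb1-CTD11* the change of *CYB5* there was -0.10 (adjusted p = 0.24), and its adjusted p in *rpb1-CTD12* without array b was 0.0362. That of *NCP1* in *rpb1-CTD12* was 0.0212 and 0.029 without array a and b. Neither passed in a double mutant against wild type 330 rpm. After loss of *CDK8*, *NCP1* rose by 0.19 with 11 repeats (adjusted p = 0.00444; 0.138 without array a of *rpb1-CTD11*), and *CYB5* had 0.01 and 0.13 (adjusted p = 0.91 and 0.118).

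Of the regulators, *UPC2*, the sterol-sensing activator of *ERG* genes, did not pass in any mutant. It read 0.08 and 0.07 in *rpb1-CTD11 cdk8Δ*, 0.03 and -0.01 in *rpb1-CTD12 cdk8Δ*, 0.11 and 0.10 in *rpb1-CTD11* and 0.06 and 0.12 in *rpb1-CTD12*, against -0.02 and -0.09 in wild type 330 rpm and 0.06 to 0.25 in wild type (median 0.18). *UPC2* was 0.23 lower in wild type 330 rpm than in wild type (SE 0.05, adjusted p = 0.00727), though 0.04 higher under the spiked-in scaling, and this missed the threshold without either array of wild type 330 rpm (adjusted p = 0.0495 and 0.175) and without any 1 of 5 of the wild type arrays (adjusted p between 0.0106 and 0.0132).

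*SUT1*, a regulator of sterol uptake that is induced when oxygen is low, was lowest in the double mutants. It read -0.62 and -0.66 in *rpb1-CTD11 cdk8Δ* and -0.61 and -0.59 in *rpb1-CTD12 cdk8Δ*, against -0.20 and -0.26 in wild type 330 rpm, and fell by 0.41 and 0.37 (SE 0.06, adjusted p = 1.19e-05 and 4.51e-05). *rpb1-CTD11*, at -0.58 and -0.44, overlapped the wild type range of -0.44 to -0.24, with a decrease of 0.17 (adjusted p = 0.00377) that became -0.09 with an adjusted p of 0.217 without its array a. *rpb1-CTD12* read -0.35 and -0.37 and differed from wild type by -0.02 (adjusted p = 0.774). Against *rpb1-CTD12* the double mutant fell by 0.24 (adjusted p = 0.00226), which missed the threshold without any 1 of the 4 arrays compared (adjusted p between 0.0129 and 0.0225), and under the spiked-in scaling this difference was 0.08.

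The transferases that store or export sterol split by type in *rpb1-CTD11*. *ATF2*, which acetylates alcohols and sterols for export, read -0.84 and -0.51 in *rpb1-CTD11* and -0.63 and -0.51 in *rpb1-CTD12*, against -0.06 to 0.24 in wild type (median 0.13). *ATF2* fell by 0.78 in *rpb1-CTD11* (SE 0.08, adjusted p = 1.86e-07), the only sterol gene called in a single truncation, where 1.49% of all gene probes were called lower, and by 0.68 in *rpb1-CTD12* (SE 0.08, adjusted p = 2.44e-06). In *rpb1-CTD13* it read 0.21 and 0.18, and it was 0.76 lower in *rpb1-CTD12* than in *rpb1-CTD13* (SE 0.10, adjusted p = 2.47e-05). The decrease stayed in the double mutants, which read -0.78 and -0.77 with 11 repeats and -0.60 and -0.84 with 12, against -0.04 and -0.10 in wild type 330 rpm, and fell by 0.70 and 0.65 (SE 0.10, adjusted p = 2.46e-05 and 6.24e-05). Loss of *CDK8* gave differences of -0.10 and -0.15 (SE 0.10, adjusted p = 0.433 and 0.25). *ATF2* in the truncations against wild type passed in all 22 alternative settings and single-array exclusions run for each strain, the spiked-in scaling among them.

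*ARE1* and *ARE2*, the pair of sterol acyltransferases, rose in *rpb1-CTD11*, by 0.33 for *ARE1* (SE 0.08, adjusted p = 0.00177) and 0.32 for *ARE2* (SE 0.05, adjusted p = 2.07e-05), the first of which was 0.25 with an adjusted p of 0.064 without array b. *ARE2*, a dim probe, read 0.28 and 0.05 in *rpb1-CTD11*, against -0.26 to -0.11 in wild type (median -0.16), and in *rpb1-CTD12* the differences were 0.19 and 0.12 (adjusted p = 0.0571 and 0.0547). Between the strains with 11 and 12 repeats *ARE2* differed by 0.20 (adjusted p = 0.0363). *ARE1* fell by 0.63 after loss of *CDK8* with 11 repeats (SE 0.10, adjusted p = 5.37e-05), with -0.40 and -0.30 in *rpb1-CTD11 cdk8Δ*, against 0.20 and 0.35 in *rpb1-CTD11*, and it had -0.33 with 12 repeats (adjusted p = 0.0134). In *rpb1-CTD11 cdk8Δ* the mean of *ARE1* was -0.35, against -0.04 in wild type 330 rpm. That difference had the direction of *ATF2* but did not pass.

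Of the oxysterol-binding protein genes, *OSH6* was low in the strains with 11 and 12 repeats. It read -0.36 and -0.59 in *rpb1-CTD11*, -0.31 and -0.28 in *rpb1-CTD12*, -0.13 and -0.18 with 13 repeats, and 0.37 and 0.43 with 20, against -0.06 to 0.18 in wild type (median 0.05). *OSH6* fell by 0.53 and 0.35 with 11 and 12 repeats (SE 0.08, adjusted p = 1.08e-05 and 0.0012), had -0.21 with 13, and was 0.35 higher with 20 repeats (SE 0.08, adjusted p = 0.0369), which did not pass. With 12 repeats the adjusted p was 0.0254 and 0.0171 without array a and b of that strain. The full-length marked strain *RPB1-CTDWT* had 0.36 and 0.03 on its 2 arrays. *HES1*, a dim probe, fell by 0.15 and 0.12 in the truncations with 11 and 12 repeats (adjusted p = 0.000723 and 0.00726), which missed the threshold without array a of *rpb1-CTD11* (adjusted p = 0.0434) and without array a or b of *rpb1-CTD12* (adjusted p = 0.0605 and 0.0671). Neither gene passed in a double mutant.

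**Figure D5:**
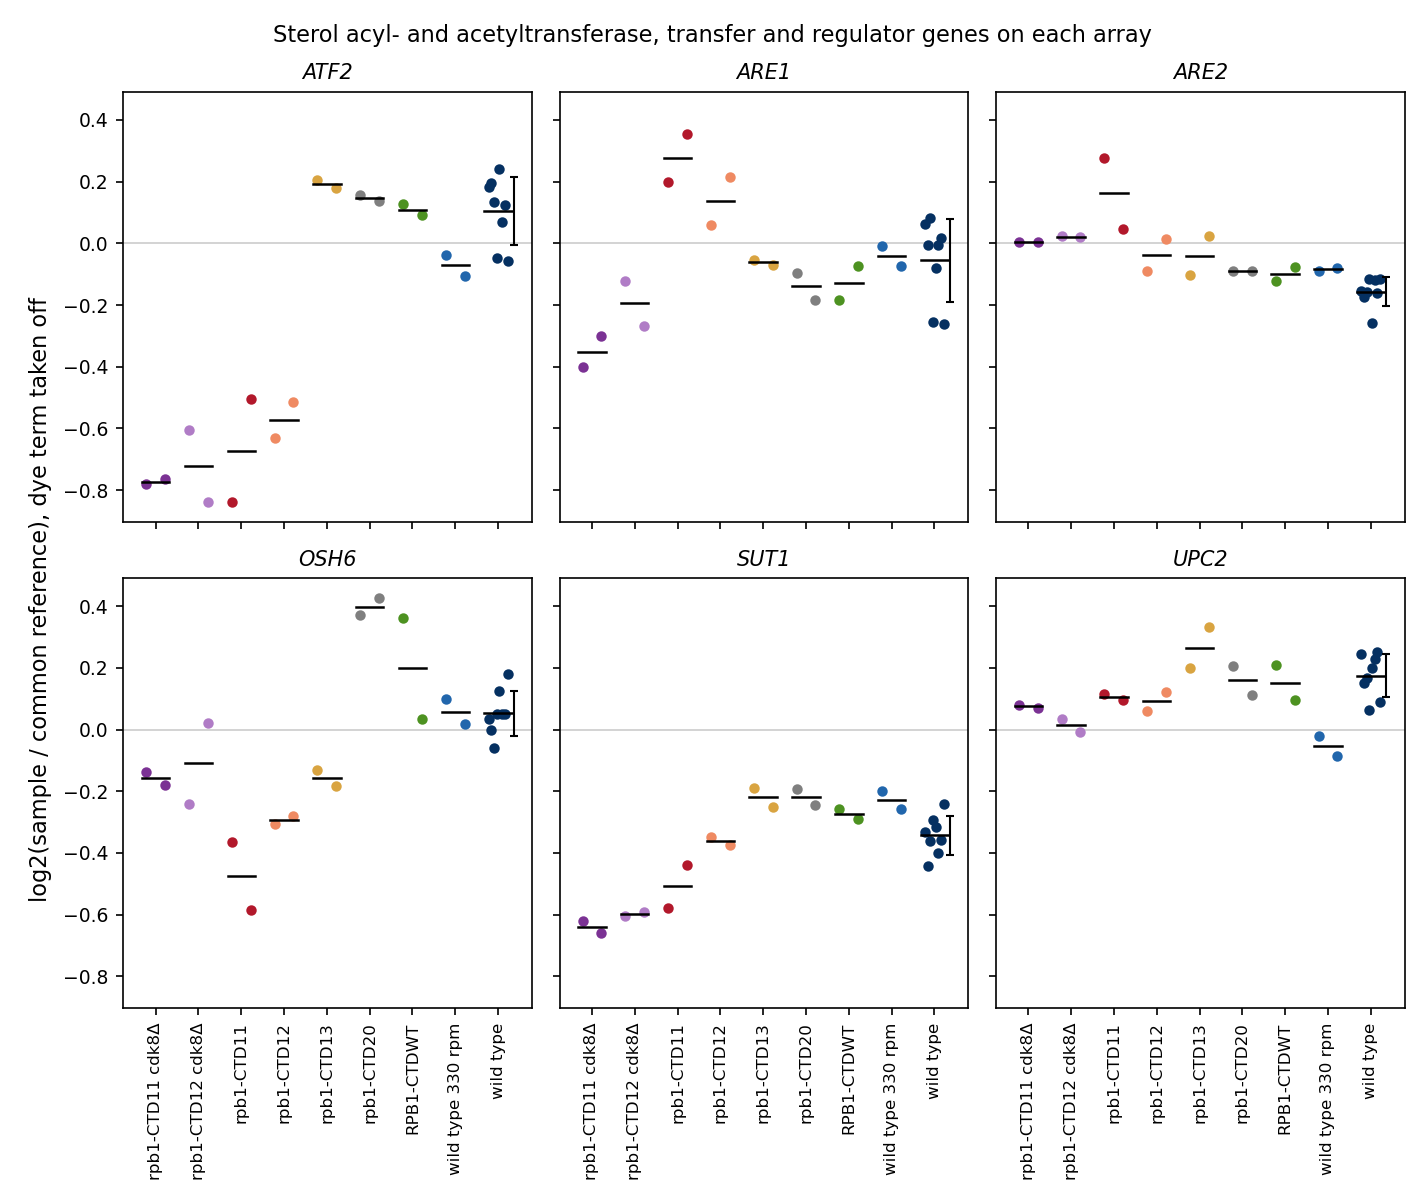
Log2 ratio to the common reference (y axis, dye term taken off) of 6 genes of sterol acylation, acetylation, lipid transfer and regulation on each array (points), by group (x axis), with group means as short lines and the SD of the 8 wild type arrays as a bar. *ATF2* lies between -0.84 and -0.51 on all 8 arrays with 11 or 12 repeats and at -0.10 or above on all others.

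Between 12 and 13 repeats, 2 of the 32 genes were higher and 4 lower in *rpb1-CTD12* than in *rpb1-CTD13*, where 14% of all gene probes were higher and 9.82% lower, so that the sterol genes together stood no higher than the background. *HMG1* was 0.34 lower (SE 0.06, adjusted p = 0.000229), *ERG5* 0.27 lower (SE 0.05, adjusted p = 0.000532; 0.0155 without array a of *rpb1-CTD12*) and *ERG25* 0.43 higher, the last of which did not pass without array b of *rpb1-CTD12* (0.31, adjusted p = 0.059) or array b of *rpb1-CTD13* (0.36, adjusted p = 0.0378). Under the spiked-in scaling, which moved the median of all gene probes by 0.51 here, *HMG1*, *HMG2* and *ERG5* had the opposite sign. Without array b of *rpb1-CTD13* the count was 3.

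In the strains where no sterol gene passed, the lowest adjusted p values belonged to *ERG2* (0.18, adjusted p = 0.0301) and *ERG9* (0.15, adjusted p = 0.0457) in *rpb1-CTD13*, to *OSH6* in *rpb1-CTD20* and to *ERG11* (-0.14, adjusted p = 0.352) in *RPB1-CTDWT*. In *rpb1-CTD13* the 32 differences lay between -0.21 and 0.18, and in *RPB1-CTDWT* between -0.14 and 0.15. Wild type 330 rpm differed from wild type in 1 sterol gene higher and 1 lower, *ERG28* (SE 0.04, adjusted p = 7.08e-05; 0.0111 without array b of wild type 330 rpm) and *UPC2*, where 2.46% of all gene probes were higher and 2% lower. *ERG24* was next, at 0.15 (adjusted p = 0.0292). Set against wild type 330 rpm, 12 genes passed in *rpb1-CTD11* (4 higher, 8 lower) and 8 in *rpb1-CTD12* (3 higher, 5 lower), and 2, 1 and 1 passed in *rpb1-CTD13*, *rpb1-CTD20* and *RPB1-CTDWT*. Expression was to be controlled by *RPB1-CTDWT* according to the methods, while the strain list pairs the truncations with wild type, so which control belongs to which mutant is uncertain. Set against *RPB1-CTDWT*, 15 genes passed in *rpb1-CTD11* (6 higher, 9 lower), 12 in *rpb1-CTD12* (4 higher, 8 lower) and 0 in *rpb1-CTD13* and in *rpb1-CTD20*. The shares of all gene probes under these other controls were not taken. Whether the sterol genes differ from the background there is therefore not known.

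Genes outside the 32 were read for context. Among 28 other genes of sterol transport, hydrolysis and accessory functions, 7 rose and 6 fell in *rpb1-CTD11* (median -0.04), shares near the 24.3% and 24.9% of all gene probes, and 4 rose and 3 fell in *rpb1-CTD12*, where all gene probes had 18.6% and 17.4%. The same background shares hold for the other lists below. The lowest p values were those of *NSG2*, whose product binds HMG-CoA reductase (0.63), *PDR16*, a phosphatidylinositol transfer protein gene (0.76), and *DAP1*, whose haem-binding product partners the lanosterol demethylase (0.54), and all 3 also rose in *rpb1-CTD12*. *PRY1*, which encodes a secreted sterol-binding protein, and *MCR1*, a cytochrome reductase gene, were singled out after their values were seen: they rose by 1.63 and 1.76 after loss of *CDK8* with 11 repeats and by 1.52 and 1.46 with 12, and were the only 2 of the 28 called, where 3.19% and 2.76% of all gene probes were called higher with 11 and 12 repeats. Over the 28 genes, 5 rose and 8 fell after loss of *CDK8* with 11 repeats, where 19.7% of all gene probes rose and 18.9% fell. With 12 repeats 7 of the 28 rose and 2 fell, where 17.5% of all gene probes rose and 14.9% fell. Among 9 genes of other isoprenoid branches, 3 fell and none rose in *rpb1-CTD11*, led by *MOD5*, which modifies transfer RNA (-0.28), *COQ1*, of ubiquinone synthesis (-0.18), and *BTS1*, of geranylgeranyl pyrophosphate (-0.12). In *rpb1-CTD12* 2 of the 9 fell. *COQ1* rose after loss of *CDK8* by 0.49 and 0.34 with 11 and 12 repeats.

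Oxygen and haem bear on many of these genes, so a list of 23 hypoxic and haem genes was read beside them. In *rpb1-CTD11*, 6 rose and 9 fell (median -0.11), and in *rpb1-CTD12* 5 rose and 6 fell. After loss of *CDK8*, 9 rose and 4 fell with 11 repeats and 6 rose and 3 fell with 12. Of all gene probes, 19.7% rose and 18.9% fell there with 11 repeats, and 17.5% rose and 14.9% fell with 12. With each length 3 of the 23 were called higher there, where 3.19% and 2.76% of all gene probes were, and the largest differences were 1.78 and 1.86. Against wild type 330 rpm 1 was called higher in each double mutant, beside 153 and 148 of all 6388 gene probes, and the largest differences were 2.41 and 2.36. *OLE1*, the fatty acid desaturase, fell by 0.98 and 0.63 with 11 and 12 repeats and rose by 1.03 and 0.84 after loss of *CDK8*, *MGA2*, which activates *OLE1*, fell by 0.53 and 0.37, and *HEM13*, of haem synthesis, rose by 0.45 with 11 repeats and had 0.10 with 12. Of 8 transcripts of the mitochondrial genome, 6 fell and none rose in both *rpb1-CTD11* and *rpb1-CTD12*, with *OLI1* at -5.42 and -5.43, *ATP8* at -1.81 and -1.82 and *ATP6* at -0.64 and -0.66, all genes of the ATP synthase. In *rpb1-CTD13*, *rpb1-CTD20* and *RPB1-CTDWT* none of the 8 passed. Against wild type 330 rpm, the 8 differences lay between 0.02 and 0.98 in *rpb1-CTD11 cdk8Δ* and between -0.04 and 0.43 in *rpb1-CTD12 cdk8Δ*. In wild type 330 rpm, 4 of the 8 were lower than in wild type, where 2% of all gene probes were lower. The part of the mitochondrial transcripts in the sterol changes of the single truncations was not tested.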

How the data were processed

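RNA of each culture sample and RNA of a common wild type pool were hybridised together on spotted arrays with 2 colours, with the dyes exchanged between arrays a and b of a group. The deposited scanner files hold the foreground and background intensity of each spot in both channels, as the authors' image software wrote them. The authors also deposited a table of log2 ratios per array, made by print-tip loess without background subtraction and with a correction for gene-specific dye bias, which was used as an alternative. Its columns correlated with the ratio of sample to reference of the same array at 0.305 or more. A deposited matrix of the authors' own fold changes and p-values was not used.

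Here, intensities were background-corrected (normexp, offset 50) and normalized by loess (span 0.3, control and empty spots at weight 0), the 2 spots of a probe were averaged, and all 24 arrays were fitted with limma 3.58.1 in R 4.3.3, with 1 coefficient for each of the 9 groups and a dye term (14 residual degrees of freedom). P-values were adjusted over 6388 gene probes by Benjamini-Hochberg, and 13 comparisons were made. Of the probes, 1062 have no gene name. A probe was above background where its sample signal exceeded the 99th percentile of the empty spots of its array. The dye term is also the replicate block, since array a or b fixes the dye. The differences between arrays a and b of 2 groups correlated over probes between 0.621 and 0.927 in all 28 pairs of groups. Pairs of wild type arrays with the same k label correlated between 0.769 and 0.888 over all gene probes, and other pairs between 0.405 and 0.9. With the k label as a random block, the correlation within a label was 0.362. In that fit, 91 of 101 single-gene differences that had passed stayed past the threshold and 10 did not. The number of arrays limits the precision.

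The 32 members and the context lists were chosen with earlier results of these data known. Members given with their values on each array were those called in a comparison with a control or single mutant and, for each comparison, the 3 with the lowest adjusted p. Of the context lists, up to 3 genes with the lowest adjusted p in *rpb1-CTD11* against wild type are named. Alternatives covered background correction, normalization, scaling, the control, the block, the arrays fitted and each array left out. No sequences are printed, and promoters were not analysed here.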

Additional observations from a re-analysis of the deposited data

Results flagged for a closer look

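For 2 of the 32 sterol genes, 1 of the 8 wild type arrays stood apart from the others, a different array for each gene. *ERG10* read -0.16 on wild type array k2-a, against -0.04 to 0.02 on the other 7, a gap to its nearest neighbour of 0.692 of the whole range, above Dixon's 95% critical value. *ARE2* read -0.26 on wild type array k1-d, against -0.17 to -0.11 on the other 7, a gap of 0.587 of the range. Chance alone marks about 1 in 20 such groups, and 32 were examined.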

How the results depend on the processing

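Counts of sterol genes that passed depended on the scaling, the dye term and the arrays fitted. The share of all gene probes that passed was not taken in these settings, so the counts are not set against a background. Scaled to the spiked-in controls, of which 6 of 14 were above background on every array, the counts against wild type were 2 with 11 repeats, 1 with 12 and 30 with 13, 1 in each double mutant against wild type 330 rpm, 0 for loss of *CDK8* with 11 and with 12 repeats, 0 for wild type 330 rpm against wild type, 0 for 11 against 12 repeats and 3 for 12 against 13. This scaling moved the median of all gene probes by -0.07, -0.08, -0.59, -0.33 and -0.03 in *rpb1-CTD11*, *rpb1-CTD12*, *rpb1-CTD13*, *rpb1-CTD20* and *RPB1-CTDWT*, by 0.22 and 0.32 for loss of *CDK8*, by 0.27 in wild type 330 rpm and by 0.51 for 12 against 13 repeats. Relative to that median, each gene that had passed in a comparison kept its direction. The share of higher genes among all that passed went with it, at 0.0169% under this scaling and 25.9% otherwise in *rpb1-CTD13*, 1.03% and 45.8% in *rpb1-CTD20*, 82.1% and 51% for loss of *CDK8* with 11 repeats, 86.4% and 54% with 12, 70.1% and 58.1% in *rpb1-CTD12 cdk8Δ* against wild type 330 rpm, 92.9% and 55.1% in wild type 330 rpm, 99.3% and 58.8% for 12 against 13 repeats, and 11.1% and 54% for 11 against 12. Under median centring it was 43.4% for 11 against 12 repeats and 35.3% in *rpb1-CTD20*. Signs turned under the spiked-in scaling for loss of *CDK8* with 11 repeats in *ERG9* (7e-04) and *ERG1* (0.0403), with 12 repeats in *HMG1* (0.11), *ERG8* (0.0746), *ERG1* (0.10), *ERG3* (0.0089), *ERG4* (0.0795) and *SUT1* (0.0755), in wild type 330 rpm in *UPC2* (0.0434), and for 12 against 13 repeats in *HMG1* (0.17), *HMG2* (0.27) and *ERG5* (0.24). With wild type 330 rpm as the control they turned in *ERG28* with 11 and 12 repeats (-0.0436 and -0.14) and in *ERG24* with 12 (-4e-04), and 12, 8, 2, 1 and 1 genes passed in *rpb1-CTD11*, *rpb1-CTD12*, *rpb1-CTD13*, *rpb1-CTD20* and *RPB1-CTDWT*. With wild type as the control, chosen after seeing the data, 20 passed in *rpb1-CTD12 cdk8Δ*. With no replicate block, the pairing by dye left out, 9 and 7 passed in *rpb1-CTD11* and *rpb1-CTD12*, 6 and 5 in their double mutants against wild type 330 rpm, 9 and 5 for loss of *CDK8*, 0 in wild type 330 rpm, 0 for 11 against 12 repeats and 3 for 12 against 13. With median centring in place of loess, 11 passed in *rpb1-CTD11*, 7 for loss of *CDK8* with 12 repeats, 1 in wild type 330 rpm, 0 for 11 against 12 repeats and 3 for 12 against 13. Fitting only the arrays of the groups compared gave 1 in *rpb1-CTD20*, 5 and 5 for loss of *CDK8*, 1 in wild type 330 rpm, 0 for 11 against 12 repeats and 2 for 12 against 13. In wild type 330 rpm 1 passed without background correction and 1 with the k label of the wild type arrays as a random block, and for 11 against 12 repeats 2 passed with print-tip loess and 2 in the deposited ratios. The cause was not tested. Leaving out single arrays gave 13 to 19 in *rpb1-CTD11*, 8 to 18 in *rpb1-CTD12*, 12 to 13 and 10 to 11 in the double mutants with 11 and 12 repeats against wild type 330 rpm, 12 to 15 and 6 to 9 for loss of *CDK8*, 0 to 2 in wild type 330 rpm (0 without its array b), 0 to 2 for 11 against 12 repeats (0 without array a of *rpb1-CTD12*, 2 without array b of *rpb1-CTD11*), 3 to 5 for 12 against 13, 0 to 2 for the difference between the responses to loss of *CDK8*, and 0 to 0 in *rpb1-CTD13*, *rpb1-CTD20* and *RPB1-CTDWT*. Of 638 single-gene differences refitted without 1 array, 522 stayed past the threshold, 116 did not and 0 turned.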
